A study of Mus musculus with 8 samples.

Results

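The 3 members of the Nr4a family, Nr4a1, Nr4a2 and Nr4a3, were described among the 22350 protein-coding genes annotated on mm9, the mouse genome build of the deposited peak lists. They were chosen by name. For each gene the NFATc2 peak summits within 100 kb of any of its transcription start sites (TSSs) were collected, together with every peak of histone H3 lysine 4 trimethylation (H3K4me3) that overlapped the gene or lay within 1 kb of a TSS. All libraries came from D1 cells, a long-term dendritic cell line of C57BL/6 mouse spleen. NFATc2, also called NFAT1, was mapped by chromatin immunoprecipitation and sequencing (ChIP-seq) of a V5-tagged protein in D1 cells transduced with a lentiviral construct, after 30 min with 10 µg/ml curdlan, a beta-glucan that engages the receptor dectin-1. H3K4me3 was mapped in D1 cells left untreated (NT), exposed to 10 µg/ml curdlan for 2 h, or exposed for 2 h to curdlan with FK506 (named FK506 where lists are set side by side), which inhibits calcineurin, the phosphatase that activates NFAT. There was 1 ChIP library and 1 input library per condition and no untreated or FK506 library for NFATc2, so no difference between conditions has a replicate check, and each interval given is a 95% interval that covers counting error only. The transduced cells were a sorted pool with a tagged factor, which limits them as a model of endogenous NFATc2.

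Nr4a1 (Nur77), Nr4a2 (Nurr1) and Nr4a3 (Nor1) encode orphan nuclear receptors, transcription factors whose activity is not known to depend on a natural ligand. They are known as immediate-early genes, transcribed within minutes of a stimulus without new protein synthesis. In lymphocytes Nr4a1 is widely used as a reporter of antigen receptor signalling, and MEF2, CREB and NFAT proteins are known regulators of the family. H3K4me3 is laid down around the start sites of active and poised genes, and the NR4A proteins recognise a motif called NBRE.

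Nr4a1 (ENSMUSG00000023034.6) lies on the plus strand at chr15:101097277-101105223 and has 1 annotated transcript and 1 TSS. Nr4a2 (ENSMUSG00000026826.5) lies on the minus strand at chr2:56959241-56976414, with 6 transcripts starting at 4 TSSs. Nr4a3 (ENSMUSG00000028341.3) lies on the plus strand at chr4:48058025-48099319, also with 4 TSSs, over 4 transcripts. Distances below are counted from the most upstream TSS of each gene in its direction of transcription, so that negative values lie upstream.

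The promoters of the 3 genes, which sit on 3 different chromosomes, shared a sequence feature, and they are shown for it. In RefSeq's promoter table (GRCm38.p6), all 3 members were matched, and the 250 bases before each start occurred exactly 1 time in mm9. Each held 4 copies of TGACG, a short form of the cAMP response element, counted on both strands (CGTCA on the strand shown is the same site). Of all 32851 promoters of the same length, 17.8% held TGACG and 0.137% held at least 4 copies, and among the 9178 promoters with a GC content of at least 60% the share with at least 4 was 0.37%. The GC content was 74.4% for Nr4a1, 80.0% for Nr4a2 and 63.6% for Nr4a3, against a median of 52.4%. The capitals mark TGACG or CGTCA, and in Nr4a2 also 1 match to the MEF2 consensus, which 2.92% of promoters held. All 4 copies were on the minus strand in Nr4a1, 2 were on each strand in Nr4a2, and 3 were on the plus strand in Nr4a3. The RefSeq start of Nr4a3 lay 74 bp downstream of the nearest start in the annotation used here. It lay further downstream of the most upstream TSS of the gene, from which distances are counted below. Only the first 120 bases of its promoter are printed, which hold the 4 copies and run past that most upstream TSS. The last of the 4 copies lay downstream of that TSS, and only the other 3 lay upstream of it.
Nr4a1 promoter, chr15:101097027-101097276, plus strand: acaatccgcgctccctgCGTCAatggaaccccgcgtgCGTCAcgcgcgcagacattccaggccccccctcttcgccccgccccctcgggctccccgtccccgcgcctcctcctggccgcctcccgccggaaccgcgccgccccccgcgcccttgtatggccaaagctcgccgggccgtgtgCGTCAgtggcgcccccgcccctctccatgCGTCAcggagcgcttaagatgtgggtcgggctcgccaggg
Nr4a2 promoter, chr2:56976415-56976664, minus strand: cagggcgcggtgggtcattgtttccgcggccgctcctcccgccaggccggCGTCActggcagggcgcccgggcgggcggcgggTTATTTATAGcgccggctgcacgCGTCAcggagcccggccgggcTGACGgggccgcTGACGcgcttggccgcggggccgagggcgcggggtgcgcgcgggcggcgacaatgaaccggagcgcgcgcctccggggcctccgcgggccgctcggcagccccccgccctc
Nr4a3 promoter, chr4:48057927-48058046, plus strand: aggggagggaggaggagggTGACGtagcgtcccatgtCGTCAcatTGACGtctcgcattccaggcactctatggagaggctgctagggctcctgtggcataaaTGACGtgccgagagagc

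None of the 3 promoters held GGAAAA, the core of the NFAT motif, which 20.4% of promoters held. None held the full element TGACGTCA, the AP-1 site TGACTCA or the NBRE AAAGGTCA, which 1.55%, 4.46% and 1.34% of promoters held. A missing match says only that those letters are not in these bases.

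NFATc2 summits were counted at 8 positions for Nr4a1, 4 for Nr4a2 and 4 for Nr4a3, with no summit shared between the genes. At least 4 summits within 100 kb were found for 12.0% of protein-coding genes and at least 8 for 1.14%, with a median of 1 summit per gene. Each member also had 1 summit within 1 kb of an annotated TSS, and 5.29% of protein-coding genes had at least 1. For Nr4a2 and Nr4a3 that TSS was an internal start, not the most upstream one. Within 10 kb of a TSS the counts were 2, 2 and 3 in the order Nr4a1, Nr4a2, Nr4a3, and 3.83% of genes had at least 2 and 0.935% at least 3, while 16.3% had at least 1. Within 30 kb the counts were 5, 2 and 3, and 30.2% of genes had at least 1, and within 100 kb 55.4% did. The shares of genes with as many as the members within 30 kb were not counted. A wide window around a gene also takes in sites of its neighbours, and the nearest coding TSS belonged to the member for 5 of the 8 sites of Nr4a1, 3 of the 4 of Nr4a2 and 3 of the 4 of Nr4a3.

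In the annotation used here, the 3 genes differed in where these sites lay. The ends of RefSeq's longer model of Nr4a1, given below, were not placed on mm9. All 8 sites of Nr4a1 were upstream of its TSS, with summits at -93373, -75770, -56353, -20475, -17997, -12989, -9823 and -340 bp. They held 99, 145, 27, 46, 36, 33, 80 and 45 tags in that order (a tag is a mapped read), which is 1.88 to 10.1 RPM (reads, here tags, per 1000000 ChIP tags of the library). The strongest by tags, at -75770, was in an intron of Acvr1b, an activin receptor gene. Its peak covered 2046 bp with a fold enrichment over input of 12.42. The peak at -93373 covered 977 bp with a fold enrichment of 38.45, the highest of the 16 sites of the 3 genes. Its summit lay 652 bp from the nearest coding TSS, which was that of Acvr1b. The promoter site at -340 had 3.13 RPM (2.28 to 4.19), at percentile 31.0 of the 9438 NFATc2 peaks ranked by tags, with a peak-caller p of 2.7e-07.

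Nr4a2 had fewer sites than Nr4a1, with 47 to 246 tags each against 27 to 145. Its strongest by tags, at -66997 bp, held 246 tags over 2500 bp, or 17.1 RPM (15.0 to 19.4), at percentile 96.5. The nearest coding TSS to it, at 46635 bp, was that of Gpd2, a mitochondrial glycerol phosphate dehydrogenase. The next, at -51422 bp with 63 tags, lay in an intron of the noncoding RNA gene BB557941, which starts upstream of Nr4a2. The other two were in introns of Nr4a2 itself, at 7296 bp with 181 tags or 12.6 RPM (10.8 to 14.6) and at 8813 bp with 47 tags. Both were close to an internal start shared by 2 shorter transcripts, 1669 and 152 bp upstream of it, and no NFATc2 summit lay within 1 kb of the most upstream TSS of Nr4a2. The site at 7296 bp was at percentile 91.8 by tags, and its peak-caller p of 1.3e-57 was the smallest of the 16 sites.

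Nr4a3 had 3 sites clustered at its start and 1 far away. The summit at -2429 bp held 113 tags or 7.86 RPM (6.48 to 9.45), at percentile 78.6. The summit at 2092 bp, in an intron, held 70 tags, and the summit at 4901 bp, in an annotated exon 940 bp after an internal start, held 91 tags. The last summit, at 93586 bp with 23 tags, was in an intron of Stx17, a syntaxin gene, and nearer to the start of Stx17 than to Nr4a3. In tags summed over all sites, Nr4a2 had 537, Nr4a1 511 and Nr4a3 297, so that Nr4a2 and Nr4a1 had similar sums from unequal numbers of sites. These sums include sites nearer to the start of another gene.

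**Figure D1:**
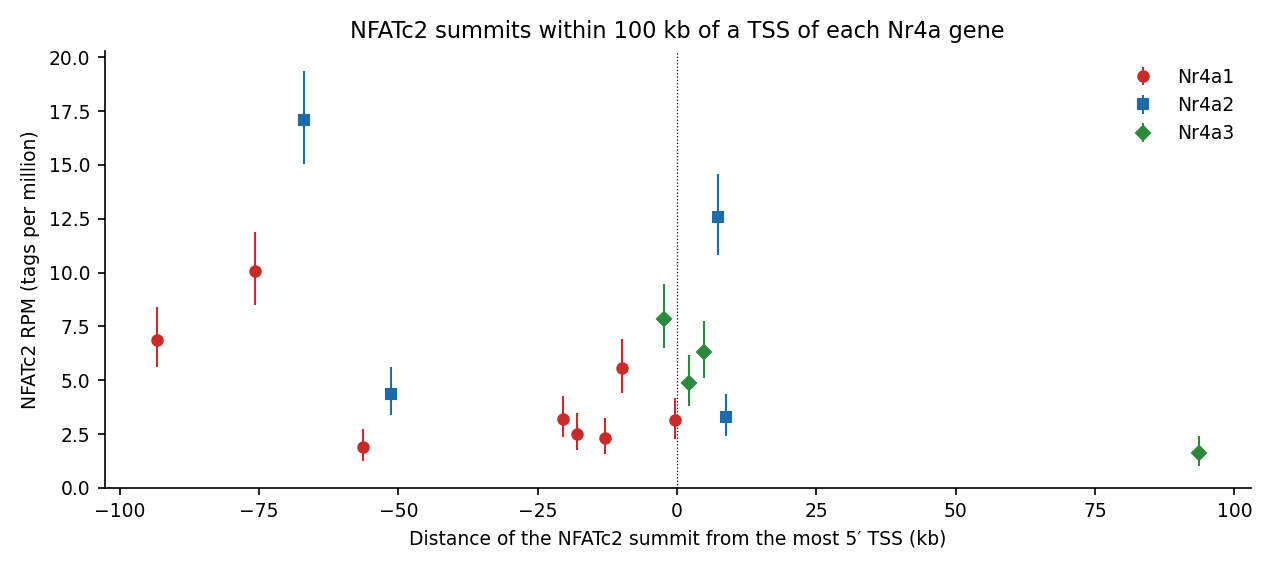
NFATc2 RPM (vertical axis) of every summit within 100 kb of a TSS, against its distance from the most upstream TSS (horizontal axis, kb); points are sites, bars are 95% Poisson intervals and the dotted line is the TSS. The 8 sites of Nr4a1 all lie upstream and reach 10.1 RPM, while the site of Nr4a2 at -66997 bp reaches 17.1.

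GGAAAA was found around most of the summits. Within 100 bp of the summit, it was present on either strand at 12 of the 16 sites, 6 of 8 for Nr4a1, 3 of 4 for Nr4a2 and 3 of 4 for Nr4a3, against 45.6% of all 9438 summit windows of 201 bp. Over the whole peaks, GGAAAA was present in 15 of the 16, the exception being the site of Nr4a3 at 2092 bp. These peaks ran from 475 to 2500 bp, and the share over all whole peaks was not counted, so this count has no background. TGACTCA was found at 2 sites, that of Nr4a2 at -66997 bp and that of Nr4a3 at 4901 bp, against 16.9% of all windows, and TGACG at 4 sites against 10.2%. The NBRE was at none of the 16 and at 1.46% of all windows. The 201 bp around 4 summits are shown, the promoter site of Nr4a1 and, by tags, the 2 strongest sites of Nr4a2 and the strongest of Nr4a3. The capitals mark GGAAAA, the AP-1 site and their reverse complements, and matches to the MEF2 consensus.
Nr4a1 at -340 bp, chr15:101096837-101097037, plus strand: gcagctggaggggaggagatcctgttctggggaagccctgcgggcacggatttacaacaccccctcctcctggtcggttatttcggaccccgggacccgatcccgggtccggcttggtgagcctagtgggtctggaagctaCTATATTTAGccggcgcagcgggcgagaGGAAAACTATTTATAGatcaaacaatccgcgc
Nr4a2 at -66997 bp, chr2:57043311-57043511, plus strand: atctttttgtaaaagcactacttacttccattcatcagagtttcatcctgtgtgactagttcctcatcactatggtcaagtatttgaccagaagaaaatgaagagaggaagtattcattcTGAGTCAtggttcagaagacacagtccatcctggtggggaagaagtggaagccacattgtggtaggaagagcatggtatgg
Nr4a2 at 7296 bp, chr2:56969018-56969218, plus strand: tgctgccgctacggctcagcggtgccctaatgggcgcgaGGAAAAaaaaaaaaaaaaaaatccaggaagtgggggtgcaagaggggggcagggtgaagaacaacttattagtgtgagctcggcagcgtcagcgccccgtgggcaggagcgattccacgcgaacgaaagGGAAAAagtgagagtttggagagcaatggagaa
Nr4a3 at -2429 bp, chr4:48055496-48055696, plus strand: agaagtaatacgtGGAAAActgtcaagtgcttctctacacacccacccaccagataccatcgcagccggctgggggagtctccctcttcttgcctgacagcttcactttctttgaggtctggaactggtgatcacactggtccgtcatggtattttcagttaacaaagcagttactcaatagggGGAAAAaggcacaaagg

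In the Nr4a1 window 2 matches to the MEF2 consensus were present, one of them directly after GGAAAA, and no other of the 16 windows held a match, against 3.03% of all summit windows. The Nr4a2 window at -66997 bp held TGACTCA on the minus strand and no GGAAAA within 100 bp. The nearest copy in its peak was 839 bp from the summit. The windows at 7296 bp of Nr4a2 and -2429 bp of Nr4a3 each held 2 copies of GGAAAA, the nearest 56 and 82 bp from the summit.

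H3K4me3 at the 3 genes differed most before stimulation. In NT cells Nr4a1 had 1 peak of 117 tags, 7.02 RPM (5.81 to 8.42), over 1804 bp. This was at percentile 5.51 among the 11500 protein-coding genes with a peak in that list. Nr4a2 had 2907 tags, 174 RPM (168 to 181), over 11825 bp, at percentile 97.5. Nr4a3 had 1740 tags, 104 RPM (99.6 to 109), over 7230 bp, at percentile 88.2. The order Nr4a1, Nr4a3, Nr4a2 held beyond counting error, with no 2 intervals overlapping. The density inside the peaks was 3.89 RPM per kb at Nr4a1, against 14.8 at Nr4a2 and 14.4 at Nr4a3.

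After 2 h with curdlan the levels of Nr4a1 and Nr4a3 were higher and that of Nr4a2 was little changed. Nr4a1 had 2124 tags, 99.8 RPM (95.6 to 104), over 7255 bp. Nr4a2 had 4093 tags, 192 RPM (186 to 198), over 11385 bp. Nr4a3 had 4510 tags, 212 RPM (206 to 218), over 10507 bp. Nr4a3 thus stood above Nr4a2, the reverse of their order in NT cells, and Nr4a1 remained the lowest of the 3, at percentile 89.5 of genes with a peak against 98.7 and 99.2. The density was 13.8 RPM per kb at Nr4a1, 16.9 at Nr4a2 and 20.2 at Nr4a3, so the deficit in density that set Nr4a1 apart in NT cells was smaller.

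With curdlan and FK506 all 3 genes were below the curdlan library. Nr4a1 had 956 tags, 49.1 RPM (46.0 to 52.3), over 4589 bp. Nr4a2 had 2937 tags in 2 peaks, 151 RPM (145 to 156), over 11620 bp. Nr4a3 had 3123 tags, 160 RPM (155 to 166), over 6758 bp. In RPM before centring, Nr4a1 and Nr4a3 lay between their NT and curdlan levels and Nr4a2 lay below both. The density was 10.7, 13.0 and 23.7 RPM per kb for Nr4a1, Nr4a2 and Nr4a3, which for Nr4a3 was above that with curdlan alone. A further piece of the Nr4a3 peak lay outside the rule and is given with the comparisons.

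**Figure D2:**
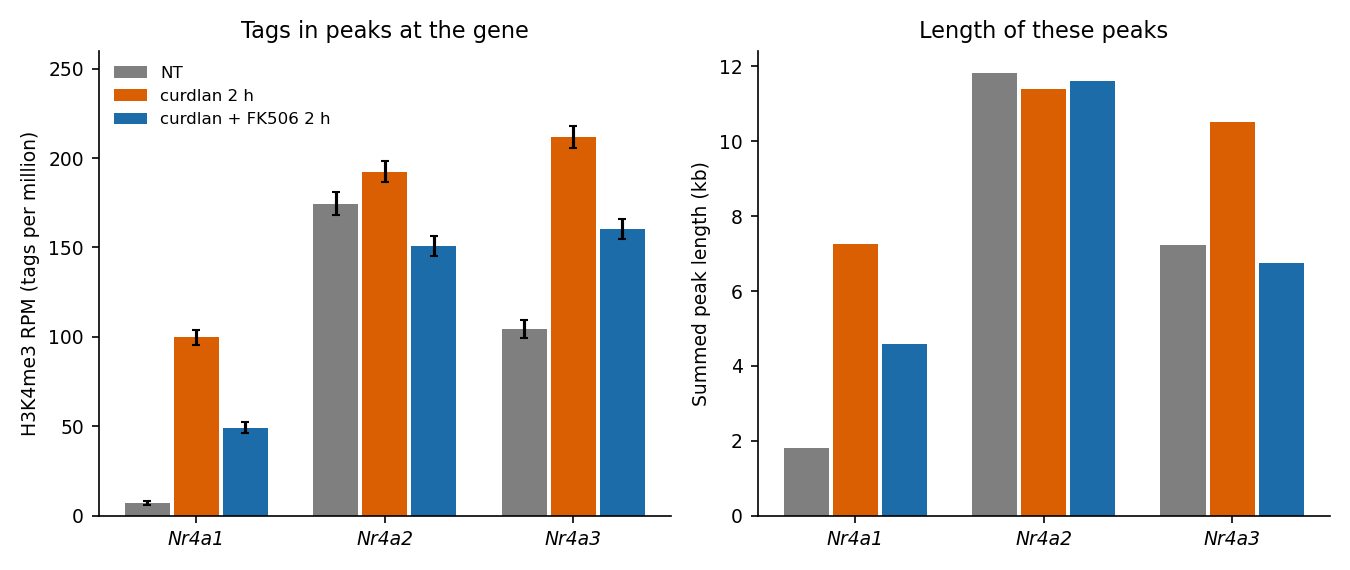
H3K4me3 RPM in the peaks of each Nr4a gene (left) and the summed length of these peaks in kb (right) in the NT, curdlan and curdlan with FK506 libraries; error bars on the left are 95% Poisson intervals of the tag count, and each bar is 1 library. Nr4a1 went from 7.02 to 99.8 and 49.1 RPM, while Nr4a2 stayed between 151 and 192; the FK506 bars of Nr4a3 leave out an upstream piece of 685 tags over 2467 bp.

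To compare conditions, ratios of RPM were centred on the median over the protein-coding genes with a peak in both lists, and a gene was counted as past 2-fold when its centred log2 ratio was at least 1 in size. Nr4a1 was 14.2-fold higher with curdlan than in NT cells (11.8 to 17.3), a centred log2 ratio of 3.96 (3.69 to 4.24). Of the 11298 genes only Catsperg1, a sperm calcium channel subunit named here after its value was seen, had a larger rise. The covered length of Nr4a1 was 4.02-fold longer and the density 3.53-fold higher, so length and density both contributed to the sum. Tags outside the called peak, which was shorter in NT cells, were not counted. The centred log2 ratio of Nr4a1 was 2.00 by density and 1.29 by fold enrichment over input. Nr4a3 was 2.03-fold higher (1.92 to 2.15), with a centred log2 ratio of 1.15 (1.07 to 1.23), a length 1.45-fold longer and a density 1.40-fold higher. It was at percentile 99.1, with 100 genes above it. Nr4a2 was 1.10-fold higher (1.05 to 1.16), with a centred log2 ratio of 0.27 (0.20 to 0.34), a length of 0.963 and a density of 1.14 relative to NT, at percentile 86.7. Thus 2 of the 3 members were past 2-fold higher, against 1.34% of genes, and 0.381% of genes were past 2-fold lower. A covered length at least 2-fold longer was found for Nr4a1 alone of the 3, against 0.938% of genes. For Nr4a3 the call rested on the measure: by the peak's fold enrichment over input, which went from 63.8 to 93.4, the centred log2 ratio was -0.18, and by density 0.66.

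Between curdlan with FK506 and curdlan, Nr4a1 was at 0.492 of the curdlan level (0.456 to 0.531), a centred log2 ratio of -0.98 (-1.09 to -0.87), with a length of 0.633 and a density of 0.778. It lay just inside the 2-fold limit, at percentile 0.443 of 11277 genes, and 49 genes were lower. Without centring it was at -1.02, past that limit. Nr4a2 was at 0.785 (0.748 to 0.823), a centred log2 ratio of -0.31 at percentile 4.66, with a length of 1.02. Nr4a3 was at 0.757 (0.723 to 0.793), a centred log2 ratio of -0.36 at percentile 3.37, with a length of 0.643. No member was past 2-fold lower, against 0.435% of genes, and none had a length at least 2-fold longer, against 0.301%. Nr4a3's value depended on how its peak was cut into pieces: the single curdlan peak corresponded to 2 peaks with FK506, and the upstream one, with 685 tags over 2467 bp, was neither in the gene nor within 1 kb of a TSS. With both pieces Nr4a3 had 3808 tags, 196 RPM, over 9225 bp, which was 0.923 of the curdlan level with a length of 0.878.

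Between curdlan with FK506 and NT, which share the libraries of the comparisons above, Nr4a1 was 6.99-fold higher (5.77 to 8.55), with a centred log2 ratio of 2.99 and a length 2.54-fold longer. Nr4a3 was 1.54-fold higher (1.45 to 1.63), with a centred log2 ratio of 0.80 and a length of 0.935, without the upstream piece. With both pieces Nr4a3 was 1.87-fold higher, with a centred log2 ratio of 1.09, and its length was 1.28-fold longer. Nr4a2 was at 0.865 (0.821 to 0.911), with a centred log2 ratio of -0.03 (-0.10 to 0.046) that did not differ from 0 beyond counting error. By the rule for counting peaks, Nr4a1 alone of the 3 was past 2-fold higher, against 0.992% of 11285 genes, and Nr4a3 joined it when its upstream piece was counted. By fold enrichment over input Nr4a1 was at 0.99, just short of the limit. Nr4a1 was also the only member whose length was at least 2-fold longer, against 0.585%. The genes above Nr4a1 in this comparison were Catsperg1, Tjp3, Dusp2, Cd83 and Ifitm2, of which all but Dusp2 and Ifitm2 are named after their values were seen.

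**Figure D3:**
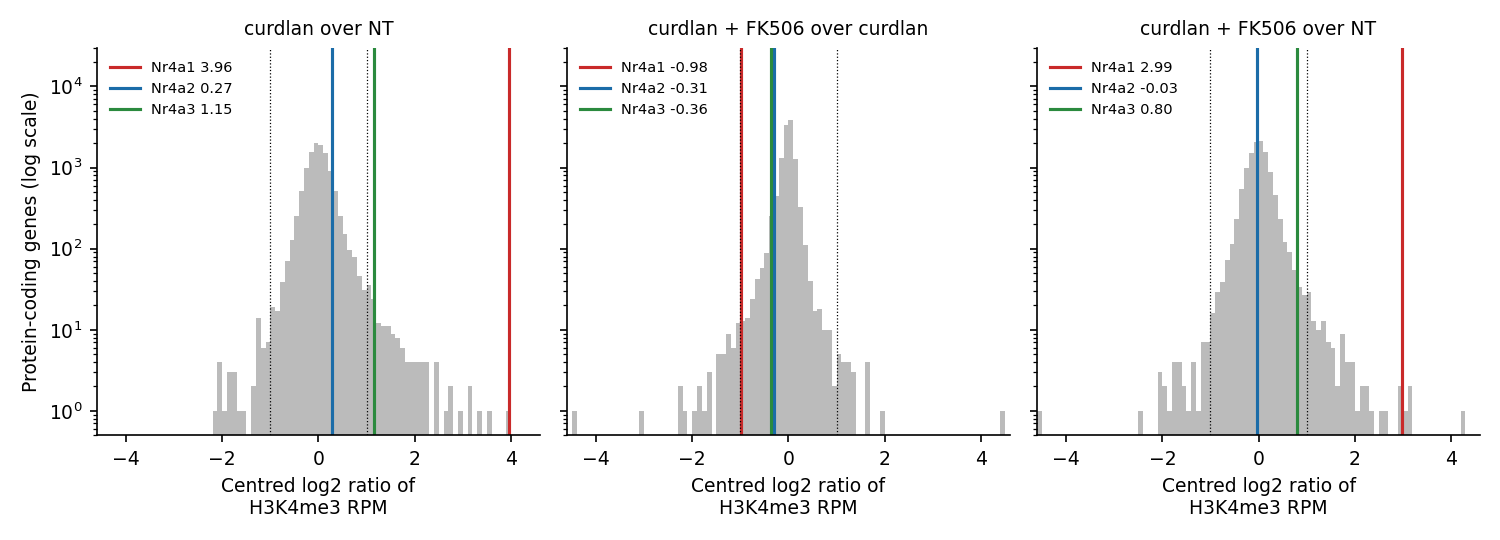
Distribution of centred log2 ratios of H3K4me3 RPM over protein-coding genes with a peak in both lists (grey, number of genes on a log axis) for the 3 comparisons; coloured lines are the Nr4a genes with their values and dotted lines are the 2-fold limits. Nr4a1 is at 3.96, -0.98 and 2.99, Nr4a3 at 1.15, -0.36 and 0.80, and Nr4a2 at 0.27, -0.31 and -0.03.

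The extent of the peaks differed in direction between the genes. At Nr4a1 the NT peak ran from -914 to 889 bp, the curdlan peak from -1626 to 5628 bp, over most of the 7947 bp of the gene, and the FK506 peak from -1160 to 3428 bp. Most of the added length was therefore downstream of the TSS. At Nr4a3 the NT peak ran from -3877 to 3352 bp with its summit at -2396 bp, whereas the curdlan peak ran from -4637 to 5869 bp with its summit at 1189 bp. The FK506 pieces ran from -4537 to -2071 and from -1826 to 4931 bp, the longer with its summit at 1483 bp. The maximum of the mark at Nr4a3 was thus upstream of the start in NT cells, close to the NFATc2 summit at -2429 bp, and inside the gene in both curdlan libraries. At Nr4a2 the extent hardly moved on the downstream side, ending at 10688, 11405 and 10774 bp in NT, curdlan and FK506. On the upstream side the NT peak reached -1136 bp, the curdlan peak began at 21 bp and the FK506 list had a separate peak of 59 tags from -1117 to -246 bp.

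**Figure D4:**
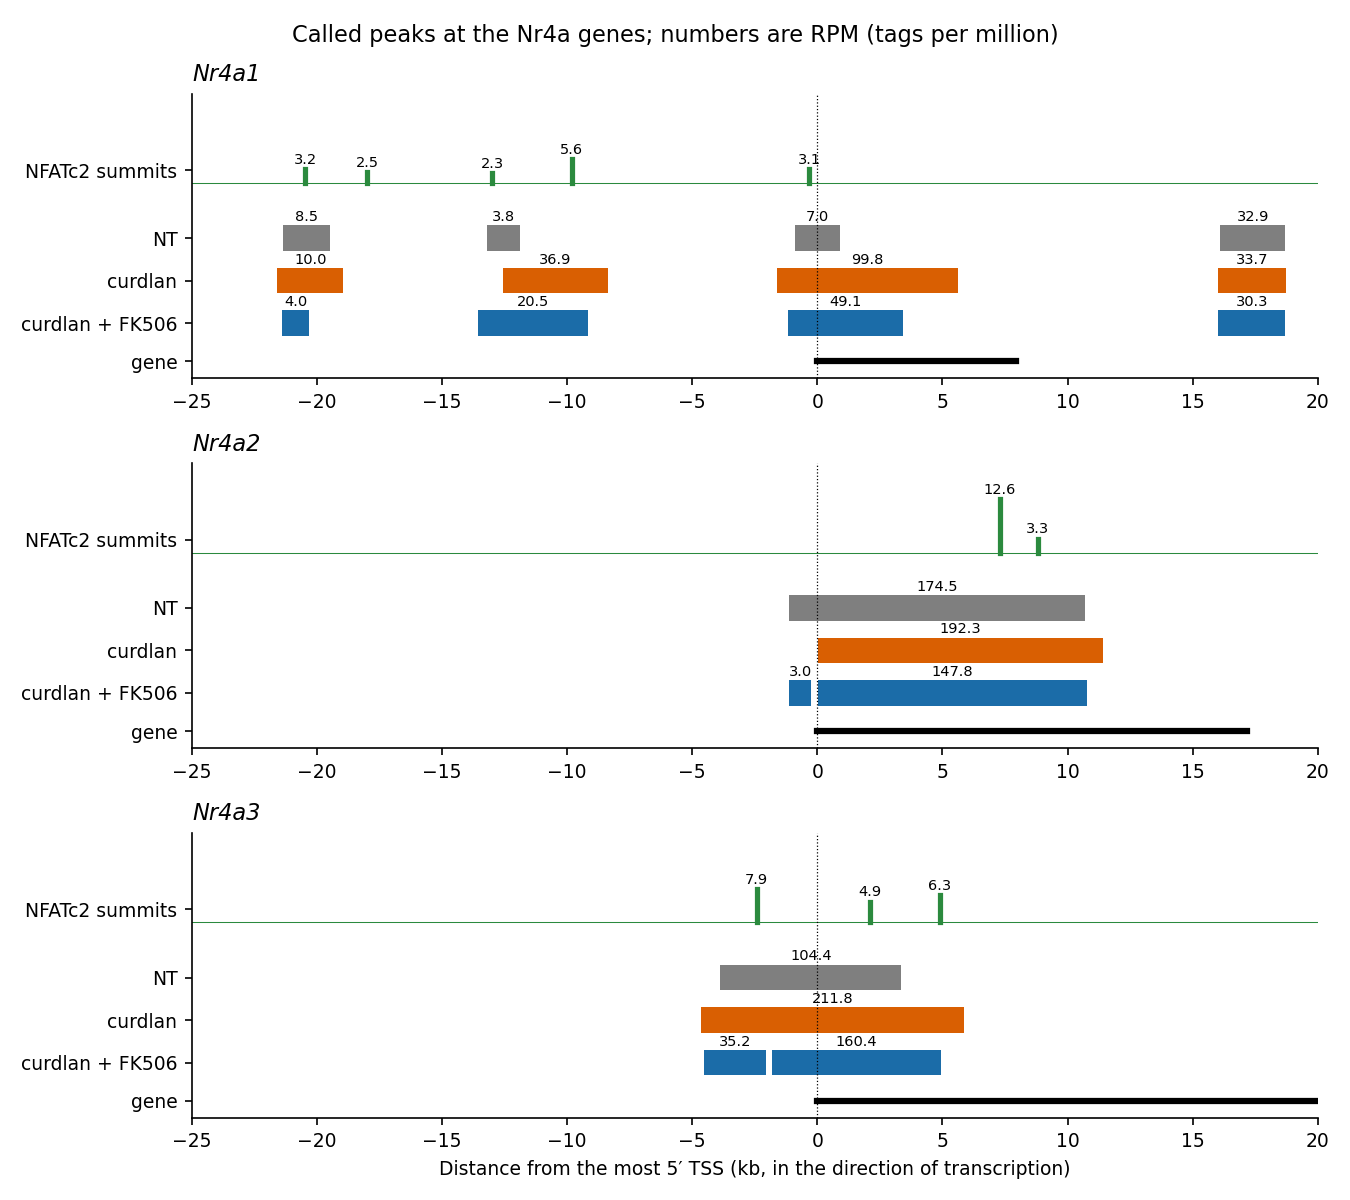
Called peaks from 25 kb upstream to 20 kb downstream of the most upstream TSS of each Nr4a gene (horizontal axis, kb in the direction of transcription); bars are H3K4me3 peaks by condition, green lines are NFATc2 summits with height in proportion to tags, the black line is the gene, and numbers are RPM. The peaks at Nr4a1 and about 12 kb upstream of it are both short in NT cells and longer with curdlan, while Nr4a2 carries a peak of more than 10 kb in every library.

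Some NFATc2 summits fell inside H3K4me3 peaks. Of all summits 23.8%, 23.3% and 22.5% lay inside a peak of the NT, curdlan and FK506 lists. For Nr4a1 the counts were 4, 4 and 5 of 8 sites, for Nr4a2 2, 3 and 3 of 4, and for Nr4a3 2, 3 and 3 of 4. The promoter site of Nr4a1, both intronic sites of Nr4a2 and the sites of Nr4a3 at -2429 and 2092 bp were inside a peak already in NT cells. The site of Nr4a3 at 4901 bp lay outside the NT peak and inside the longer curdlan and FK506 peaks. The sites with the most tags, at -66997 bp for Nr4a2 and at -75770 bp for Nr4a1, were in no H3K4me3 peak of any list. Of the 16 sites, the one counted for Nr4a1 at -93373 bp had the highest fold enrichment, and it was inside a peak of every list. That site lay 652 bp from the TSS of Acvr1b, its nearest coding gene. The NFATc2 library was made 30 min after curdlan in transduced cells and the H3K4me3 libraries at 2 h, so the lists do not describe the same cells at the same time.

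A second H3K4me3 peak upstream of Nr4a1 moved with the one at its TSS. In NT cells it had 64 tags, 3.84 RPM, from -13226 to -11896 bp, and held the NFATc2 summit at -12989 bp. The peak caller gave this NT peak an FDR of 11.34%. With curdlan it had 786 tags, 36.9 RPM, from -12578 to -8385 bp, and held the summit at -9823 bp but not the one at -12989 bp. With FK506 it had 399 tags, 20.5 RPM, from -13561 to -9166 bp, and held both. The curdlan level was 9.61-fold the NT level, a log2 ratio of 3.26 (2.90 to 3.66) before centring. The peak covered 4194 against 1331 bp, with a density of 8.80 against 2.89 RPM per kb. The FK506 level was 0.555 of the curdlan level over 4396 bp, with a density of 4.66. No coding TSS of the annotation was closer to it than that of Nr4a1. RefSeq's model of Nr4a1 on GRCm38 spans 20894 bp against 7947 bp in the annotation used here, and the ends of the longer model were not placed on mm9. Another peak, about 20 kb upstream, had 8.52, 10.0 and 4.01 RPM in NT, curdlan and FK506, over 1873, 2638 and 1065 bp. Its density was 4.55, 3.79 and 3.76 RPM per kb, so that the curdlan and FK506 lists differed here in called length and hardly in density.

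Among the neighbours, the promoter of Grasp, a scaffold protein gene about 42 kb upstream of Nr4a1, had 28.5, 55.4 and 42.8 RPM, 1.94-fold higher with curdlan and a centred log2 ratio of 1.09 at percentile 99.0. Its length was 1.55-fold longer and its density 1.26-fold higher. The next H3K4me3 peak downstream of Nr4a1, at 9430023L20Rik, had 32.9, 33.7 and 30.3 RPM, 1.02-fold. Acvr1b, further upstream, had 14.2, 13.1 and 12.4 RPM in the peak that held the NFATc2 summit at -93373 bp, 0.922 with curdlan. Upstream of Nr4a2, the peak in BB557941 that held the NFATc2 summit at -51422 bp with curdlan and FK506 had 6.06, 11.7 and 7.86 RPM. It was 1.93-fold higher with curdlan over a length 1.63-fold longer and at a density 1.19-fold higher. The peak caller gave its NT peak an FDR of 12.11%. The peak at the start of BB557941 had 71.3, 59.0 and 56.2 RPM. Near Nr4a3, the promoter of Stx17 had 18.8, 19.2 and 17.0 RPM, 1.02-fold.

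The genes most like each member over the 3 libraries were taken as those with the smallest Euclidean distance between pairs of centred log2 ratios (curdlan over NT, curdlan with FK506 over curdlan), among 10659 protein-coding genes with at least 10 RPM in some library. For Nr4a1 these were Dusp2, a nuclear MAP kinase phosphatase, at a distance of 0.77, Ifitm2, an interferon-induced membrane protein, at 0.97, and Csrnp1, a nuclear protein induced by signalling, at 1.18. Dusp2 had 4.08, 42.7 and 32.6 RPM and Csrnp1 22.0, 173 and 150, so both kept a larger share of the curdlan level with FK506 than Nr4a1 did. For Nr4a3 they were C5ar1, the complement C5a receptor, at 0.0058 with 49.1, 99.2 and 75.2 RPM, Agfg1 at 0.019 and Clcf1 at 0.062. For Nr4a2 they were Dos and Atp5d, which share their peaks, at 0.0092, and Thra, a thyroid hormone receptor, at 0.015. Nr4a3 ranked 87 and Nr4a2 990 by distance from Nr4a1. These distances describe 2 ratios that share the curdlan library.

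Set beside other genes of their kind, the members were read against 3 gene lists. Of 45 other nuclear receptor genes, 20 had a peak in both the NT and curdlan lists and none was past 2-fold in either direction with curdlan, the background being 1.34% higher and 0.381% lower. Their centred log2 ratios ran from -0.25 to 0.68 with a median of 0.05, against 0 over all genes by construction, and the highest was Nr6a1. Rxra, the partner of several nuclear receptors including Nr4a1 and Nr4a2, had 4.26, 5.35 and 3.29 RPM, Rxrb had 72.7, 64.7 and 66.2, and Rxrg had no peak. With FK506 relative to curdlan none of 19 was past 2-fold, against 0.204% of genes higher and 0.435% lower.

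Of 28 other immediate-early genes, 27 had a peak in every list. With curdlan 4 were past 2-fold higher, 0 were past 2-fold lower, against 1.34% and 0.381% of all genes, and the median was 0.41. These were Dusp2 at 3.52, Csrnp1 at 3.11, Egr1, a zinc finger factor, at 1.40 and Atf3, a bZIP factor, at 1.26 on the centred log2 scale. Nr4a1 was above all of them, Nr4a3 was below Atf3 and above the 23 others, and Nr4a2 was below the list's median. Egr1 had 46.2, 111 and 82.2 RPM and Atf3 66.2, 144 and 145. With FK506 relative to curdlan, 0 of 27 were past 2-fold in either direction, against 0.204% of genes higher and 0.435% lower, and the lowest centred log2 ratio was -0.39, that of Egr1, against -0.98 for Nr4a1. With FK506 relative to NT, 6 were past 2-fold higher, against 0.992% of genes.

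Of 23 genes that act upstream of Nr4a transcription (MEF2 and CREB factors with their cofactors, histone deacetylases that bind MEF2, calcineurin subunits, NFAT genes and the kinase Prkd2), 21 had a peak in every list and 0 were past 2-fold between curdlan and NT (1.34% of genes were higher and 0.381% lower), with a median of -0.06. Between FK506 and curdlan 1 was past 2-fold higher, against 0.204% of genes, and 0 were past 2-fold lower, against 0.435%. The 1 gene was Crtc2, a CREB coactivator named after its value was seen, at a centred log2 ratio of 1.17. It had 146, 76.5 and 167 RPM over 7521, 5474 and 8762 bp in NT, curdlan and FK506. Its called length thus moved with its level. NFATc2 summits within 1 kb of a TSS were found for 4 of the 45 nuclear receptor genes, 3 of the 28 immediate-early genes and 2 of the 23 upstream genes, against 5.29% of all protein-coding genes. Summits within 100 kb were found for 23, 25 and 19 of them, against 55.4% of all.

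The libraries held 14377535 to 21289349 ChIP tags and 9309800 to 12085435 input tags. Of 14 dendritic and myeloid markers, 13 had an H3K4me3 peak in every list, and Flt3, a receptor of dendritic cell progenitors, had none. Markers of B cells (0 of 4), NK cells (0 of 2) and fibroblasts (0 of 3) had no peak in any list, and single genes of the T cell list (Lck, 1 of 5) and the erythroid list (Klf1, 1 of 2) did. The summed level of the dendritic and myeloid markers was 1834, 1681 and 1772 RPM in NT, curdlan and FK506, and that of the T cell list 19.7 to 23.2. The part of either in the results was not tested.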

How the data were processed

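NFATc2-V5 and H3K4me3 ChIP-seq peak lists of 1 library per condition were analysed. Per the labels, Bowtie alignments to mm9 were made by the authors, and per the file headers peaks were called against input with MACS 1.4.2. The deposited columns are tag counts per peak, a score made from the log10 of the p-value, a fold enrichment ratio and an FDR in percent. Tag counts were scaled to RPM, tags per 1000000, by the ChIP totals in the headers, and peaks were joined to Ensembl 65 gene models on NCBI build 37. Ratios between H3K4me3 lists were centred on the median over protein-coding genes with a peak in both (-0.13, -0.04 and -0.18 on the log2 scale). Intervals are exact Poisson (levels) and Clopper-Pearson (ratios) at 95% and cover counting error only; with 1 library per condition no test was made. A region with no called peak has no value. The steps were tested on simulated data. The members, gene lists and rule for naming genes (the members, genes nearest to a site, the 3 most alike, the 4 largest past 2-fold in each list and the Rxr genes) were chosen with earlier results of these data known. Scripts used Python 3.11.15, pandas 2.3.3 and scipy 1.17.1. The alternatives covered scaling, centring, density, fold enrichment, FDR, p-value and distance limits, and the fold enrichment, FDR and score columns served only there and as descriptions. Input libraries entered only through the peak caller.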

Additional observations from a re-analysis of the deposited data

How the results depend on the processing

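Nr4a1 kept its direction with curdlan under all 9 alternatives, from 1.29 to 3.96 on the centred log2 scale, and stayed past 2-fold in each. Density in place of tags gave 2.00, -0.35 and 1.66 for Nr4a1 (curdlan over NT, FK506 over curdlan, FK506 over NT), 0.37 for Nr4a2 with curdlan over NT, and 0.66, 0.25 and 0.91 for Nr4a3. Fold enrichment over input gave 1.29, -0.31 and 0.99 for Nr4a1, 0.13 and -0.15 for Nr4a2 in the first and second comparisons, and -0.18, 0.039 and -0.13 for Nr4a3, whose rise with curdlan it reversed. Without centring Nr4a2 was at 0.14 with curdlan and -0.21 with FK506 over NT, and Nr4a3 at 1.02 and 0.62. Counting peaks within 5 kb of a TSS gave Nr4a3 -0.071 for FK506 over curdlan and 1.09 for FK506 over NT. Nr4a1 kept 4 NFATc2 summits at a p-value of 1e-10 or less, 5 within 30 kb, 4 within 20 kb and 5 nearest to it, and Nr4a2 kept 2 within 30 or 20 kb. The genes past 2-fold numbered 38, 9 and 29 by density and 925, 859 and 805 by fold enrichment, against 194, 72 and 150. The cause of these moves was not tested. An alternative chosen after seeing the data joined the upstream peak to Nr4a1 and is included in its range. No paired analysis was possible because each condition has 1 library.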
